A study of Mus musculus with 8 samples.

Results

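The genes described here encode the nuclear pore complex and the receptors that carry cargo through it. They were chosen by symbol: names that begin with Nup and a digit, Kpna, Kpnb, Ipo, Xpo, Tnpo or Pom121, together with Tpr and Ranbp2. The rule found 47 genes among the 16458 transcripts of 3 deposited tables, 25 of them nucleoporins and 22 transport receptors. Of the 47 genes, 42 were in the CLIP table, 47 in that of poly(A) RNA and 44 in that of ribosome footprints. Among the nucleoporins, 4 span the nuclear membrane or are relatives of ones that do (Nup210, Pom121, Nup210l and Pom121l2), 20 are soluble and Nup62cl is a Nup62-like gene that was put in neither class.

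All libraries came from A3-1 mouse embryonic stem cells kept in medium with 20% fetal bovine serum and LIF, the cytokine that holds such cells undifferentiated. RNA bound to LIN28A was recovered by CLIP, the sequencing of RNA crosslinked to a protein and precipitated with it, with the antibodies 35L33G and 2J3, both monoclonal, and a polyclonal antibody. Each antibody gave 1 library, from cells that received no siRNA, and no control CLIP library was analysed here. Poly(A) RNA was sequenced from untreated cells and from cells given siRNA for 48 h, directed at luciferase (siLuc, the control) or at Lin28a (siLin28a). Ribosome footprints, the mRNA fragments that ribosomes protect, were sequenced from siLuc and siLin28a cells. Each condition has 1 library. Nothing states that the libraries came from separate cultures, so any spread between them may be technical. The siRNA comparisons have no replicate check and no p-value; their intervals are 95% intervals that cover counting error only.

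LIN28A is an RNA-binding protein of stem cells that blocks the maturation of let-7 microRNAs and binds many mRNAs. The nuclear pore complex is a ring of many copies of each nucleoporin: a Y-shaped scaffold and an inner ring line the membrane, transmembrane nucleoporins anchor the ring, and nucleoporins rich in phenylalanine-glycine repeats fill the channel. Importins and exportins of the importin beta family bind those repeats and take cargo in or out under the control of the GTPase Ran, while importin alpha proteins join classical nuclear localisation signals to importin beta. Transmembrane nucleoporins are made on the endoplasmic reticulum, whereas the soluble nucleoporins and the transport receptors are made in the cytosol.

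The siRNA against Lin28a is printed because every knockdown comparison rests on it. The labels give both strands of the duplex, each 19 bases long, and do not say which is the guide:
first strand: auguucuucccuuuuggcc
second strand: ggccaaaagggaagaacau

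The targeted gene checked the labels. Lin28a mRNA stood at 465 CPM (counts scaled to the library total) in untreated cells, 354 in siLuc and 118 in siLin28a, so that 33.4% of the siLuc level was left (counting interval 31.1 to 35.8). That is a log2 change of -1.58 (-1.68 to -1.48). The footprint table tallies the same poly(A) libraries at 398 Lin28a counts in siLuc and 223 in siLin28a. By that tally the log2 change was -1.19 (-1.43 to -0.95), so the size of the knockdown depends on the tally. Lin28a footprints went from 119 to 30.4 CPM. Exon counts per CLIP library ranged from 7698479 to 8027670, poly(A) counts from 7475174 to 9605641, and footprint counts were 7570209 in siLuc and 5980673 in siLin28a. The 7 embryonic stem cell markers summed to 2519 RPKM (reads scaled to transcript length and library total) in untreated cells, 2797 in siLuc and 3326 in siLin28a. The 3 fibroblast markers measured summed to 14.4, 13.8 and 6.47 RPKM, nearly all of it Thy1, with Col1a1 and Col1a2 at or below 0.37 RPKM. The 6 markers of differentiated lineages summed to 26.2, 27.1 and 31.6 RPKM, most of it the neuronal tubulin Tubb3. The part of these marker shifts in the results was not tested. In whole-culture RNA, fewer cells of a type and less RNA per cell cannot be told apart.

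Most of the genes were well expressed. In untreated cells 42 of the 47 had at least 200 poly(A) counts, and these ranged from 19.2 to 440 RPKM with a median of 58.1, against 24.7 over the 7346 transcripts with as many counts. Kpnb1, which encodes importin beta 1, the receptor of the classical import route, stood highest at 440 RPKM in untreated, 446 in siLuc and 360 in siLin28a cells. The import receptor Ipo5 followed at 317, 269 and 223 RPKM, and the Y complex member Nup85 at 249, 202 and 172 RPKM. The 3 genes kept their order in each library, with the siLin28a library lowest for each. The exportin Xpo1 (CRM1), which exports proteins with leucine-rich signals, stood at 158, 203 and 144 RPKM. Transportin 1 (Tnpo1), an import receptor for many RNA-binding proteins, was at 55.1, 41.6 and 38.7 RPKM.

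The transmembrane nucleoporins lay at the other end. Pom121, which anchors the ring and is needed for pore assembly, was the lowest of the 42 at 19.2 RPKM in untreated, 11.7 in siLuc and 15.4 in siLin28a cells. Nup210 (gp210), a pore membrane protein whose level differs strongly between cell types, was at 21.3, 18.1 and 21.0 RPKM. Xpo7, at 20.9 RPKM in untreated cells, was the only gene between them. The other 5 genes had fewer than 200 untreated counts: Nup35, Kpna2, Nup210l, Pom121l2 and Kpna7. Pom121l2 had 7, 3 and 0 counts in untreated, siLuc and siLin28a cells and Nup210l 37, 19 and 28, too few to compare.

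The tallies of poly(A) reads differed between tables by over 2-fold for 3 genes of the set, once centred on the median transcript. Kpna2, an importin alpha known to be abundant in stem cells, had 26 to 30 counts in the poly(A) table and 6373 (siLuc) and 7241 (siLin28a) in the footprint table, which are tallies of the same libraries. The log2 gap in siLuc was taken as footprint table over poly(A) table, minus that of the median transcript. It was 8.03 for Kpna2, 3.11 for the inner ring gene Nup35 and 1.39 for the channel gene Nup54. Their levels and ribosome densities are therefore uncertain. No such centred gap over 2-fold was seen for the other genes of the set measured in both tables. In raw counts Kpna6 also differed by over 2-fold. It had 1211 (siLuc) and 1493 (siLin28a) in the poly(A) table and 574 and 665 in the footprint table.

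**Figure D1:**
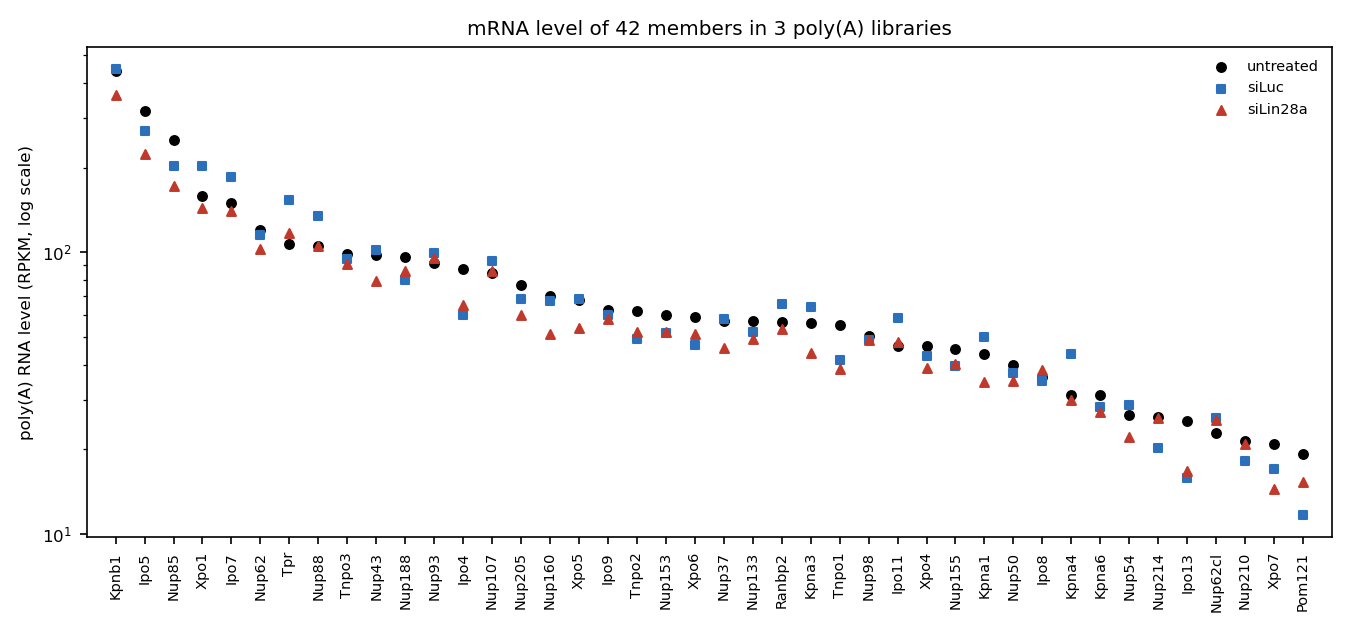
Poly(A) RNA level in RPKM (log axis) of the 42 genes with at least 200 untreated counts, ordered by untreated level, with a circle for the untreated, a square for the siLuc and a triangle for the siLin28a library. Kpnb1 stands highest at 440 RPKM and Pom121 lowest at 19.2 RPKM in untreated cells.

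LIN28A CLIP counts were compared with untreated poly(A) counts to ask which of these mRNAs were over-represented among LIN28A-bound RNA. Of the 42 genes in the CLIP table, 13 were enriched and 20 depleted (edgeR quasi-likelihood test with TMM scaling, adjusted p under 0.05 over all 7820 transcripts). Across all transcripts tested, 34.6% were enriched and 33.3% depleted. The median log2 enrichment was -0.12 for these genes and -0.03 for all transcripts, so the set as a whole sat close to the table, with wide spread inside it: values ran from -1.87 to 2.37. The 3 antibodies gave the same sign for 38 of the 42 genes, much as for all transcripts, at 7018 of 7820. The SD over antibodies had a median of 0.085 here against 0.15 over all transcripts. The part of expression level in that gap was not tested. The input is a single library, which the test assumes to vary like the CLIP libraries. The scaling bears on genes near 0: library totals in place of TMM moved the median of all transcripts in the edgeR fit from -0.01 to -0.38. With them 9 were enriched and 24 depleted, the calls of Nup210, Nup43, Nup153 and Ipo5 being lost and 6 genes changing sign.

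Both transmembrane nucleoporins in the table were enriched. Pom121 (NM_148932, mm9 chromosome 5, 135852010 to 135870416) had 2050, 1882 and 1932 exon counts with 35L33G, 2J3 and the polyclonal antibody, against 993 in the input. Its log2 enrichment was 1.61, 1.47 and 1.49, a mean of 1.52 ± 0.08 (SD, n = 3; edgeR adjusted p = 1.3e-09). Nup210 (NM_018815, mm9 chromosome 6, 90963061 to 91066820) had 1215, 1467 and 1367 counts against 1391. Its enrichment was 0.37, 0.63 and 0.50, a mean of 0.50 ± 0.13 (SD, n = 3; edgeR adjusted p = 0.0026). Each antibody put Pom121 above Nup210 by more than the spread of either. The call for Nup210 depended on the scaling: with library totals its enrichment was 0.14 and edgeR's adjusted p 0.359.

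The scaling cancels when each is set against the soluble nucleoporins of the same library. Pom121 exceeded the median of the 19 soluble nucleoporins by 1.70 ± 0.13 log2 units (SD, n = 3 antibodies), with 2 of the 19 above it, Ranbp2 and Tpr. Nup210 exceeded that median by 0.68 ± 0.29 log2 units (SD, n = 3), with 4 of the 19 above it, the same pair and Nup155 and Nup43. The soluble median itself was -0.07, -0.37 and -0.09 with 35L33G, 2J3 and the polyclonal antibody. Part of the spread of the Nup210 gap thus lies in that median, which was the value of Nup37 with both monoclonal antibodies. From 1 input and 3 antibodies no exact test of either gap can fall below 0.05. With coding-region CLIP counts over the same whole-exon input the gap was 0.52 for Pom121 and 0.66 for Nup210. Both were thus above the soluble median in either version. That input still counted noncoding sequence, 35.4% of the Pom121 model and 19.5% of the Nup210 model, which lowers the value of Pom121 more. The coding-region version therefore cannot say which gene leads in the coding region.

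Soluble nucleoporins were mixed, with 5 of 19 enriched, 9 depleted and a median of -0.11. Ranbp2 (NUP358), the giant protein of the cytoplasmic filaments, was the most enriched gene of the whole set. It (mm9 chromosome 10, 57909600 to 57956902) had 16840, 17674 and 18292 counts against 4978 in the input, an enrichment of 2.37 ± 0.04 (SD, n = 3; edgeR adjusted p = 1.1e-16). Each CLIP library held more than the input by over 3-fold in raw counts, although the input was the deeper library. Tpr, the coiled-coil filament of the nuclear basket, had 14905, 16069 and 16386 counts against 7464 and an enrichment of 1.63 ± 0.05. The inner ring protein Nup155 had 3670, 3597 and 3633 counts and an enrichment of 0.98 ± 0.03. Nup43 of the Y complex (0.53 ± 0.02) and the basket protein Nup153 (0.29 ± 0.06) were enriched by less, and Nup153 changed sign with library totals, at -0.08.

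At the other end was Nup62, a phenylalanine-glycine repeat protein of the central channel (mm9 chromosome 7, 52071790 to 52086176). It had 527, 463 and 490 counts against 2645 in the input, an enrichment of -1.87 ± 0.11 (SD, n = 3; edgeR adjusted p = 2.6e-10), so every CLIP library held far fewer reads than the input. Nup85, with 1438, 1571 and 1478 counts against 4962, followed at -1.18 ± 0.06. By position in the pore, the Y complex had 1 enriched and 3 depleted of 6 (median -0.41), the inner ring 1 and 3 of 4 (-0.42), and the central channel 0 and 2 of 3 (-0.64). The cytoplasmic side had 1 enriched and 1 depleted of 3 (-0.01), and the basket 2 and 0 of 3 (0.29). Genes of a single subcomplex were therefore split: Nup133 (-0.92) and Nup43 of the Y complex, or Nup155 and Nup93 (-0.90) of the inner ring, lay on opposite sides of 0.

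The transport receptors were split in the same way. Of the 11 import receptors 3 were enriched and 7 depleted, with a median of -0.27. Of the 5 exportins 1 was enriched and 3 depleted, with a median of -0.66. Xpo1 (mm9 chromosome 11, 23156041 to 23197597) had 16616, 17734 and 19294 counts against 7551 and an enrichment of 1.79 ± 0.09 (SD, n = 3). It was the one enriched exportin, and Xpo6, which exports actin with profilin, was at -1.30 ± 0.15. Ipo7, an import receptor for ribosomal proteins and histone H1 among others, had 8142, 8821 and 8875 counts against 4330 and an enrichment of 1.54 ± 0.05. Tnpo1 was enriched at 0.65 ± 0.13, whereas its close paralog Tnpo2 was depleted at -1.70 ± 0.17, with the ranges over antibodies far apart. Where reads are shared between such paralogs, the authors' counting could split them, and the counting rule is not given in the sources used here.

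Ipo4 (-1.87 ± 0.08), which carries histones, and Ipo13 (-1.30 ± 0.18), which works in both directions, completed the most depleted receptors. Importin beta 1 (Kpnb1) itself was near the input, at -0.16 ± 0.09 (SD, n = 3; edgeR adjusted p = 0.0392). That call was lost without the 35L33G library (edgeR adjusted p = 0.0866), without the 2J3 library (edgeR adjusted p = 0.17), with DESeq2 (adjusted p = 0.0693) and with the unnamed poly(A) counts of the CLIP table as input (edgeR adjusted p = 0.0967). Among the 4 importin alpha genes measured, Kpna3 (0.95 ± 0.09) and Kpna4 (0.76 ± 0.03) were enriched, Kpna6 (-0.43 ± 0.12) was depleted and Kpna1 (0.14 ± 0.11; -0.23 with library totals) was not called. Kpna3 and Kpna4 belong to the same subfamily of importin alpha, and Kpna1 and Kpna6 to another.

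**Figure D2:**
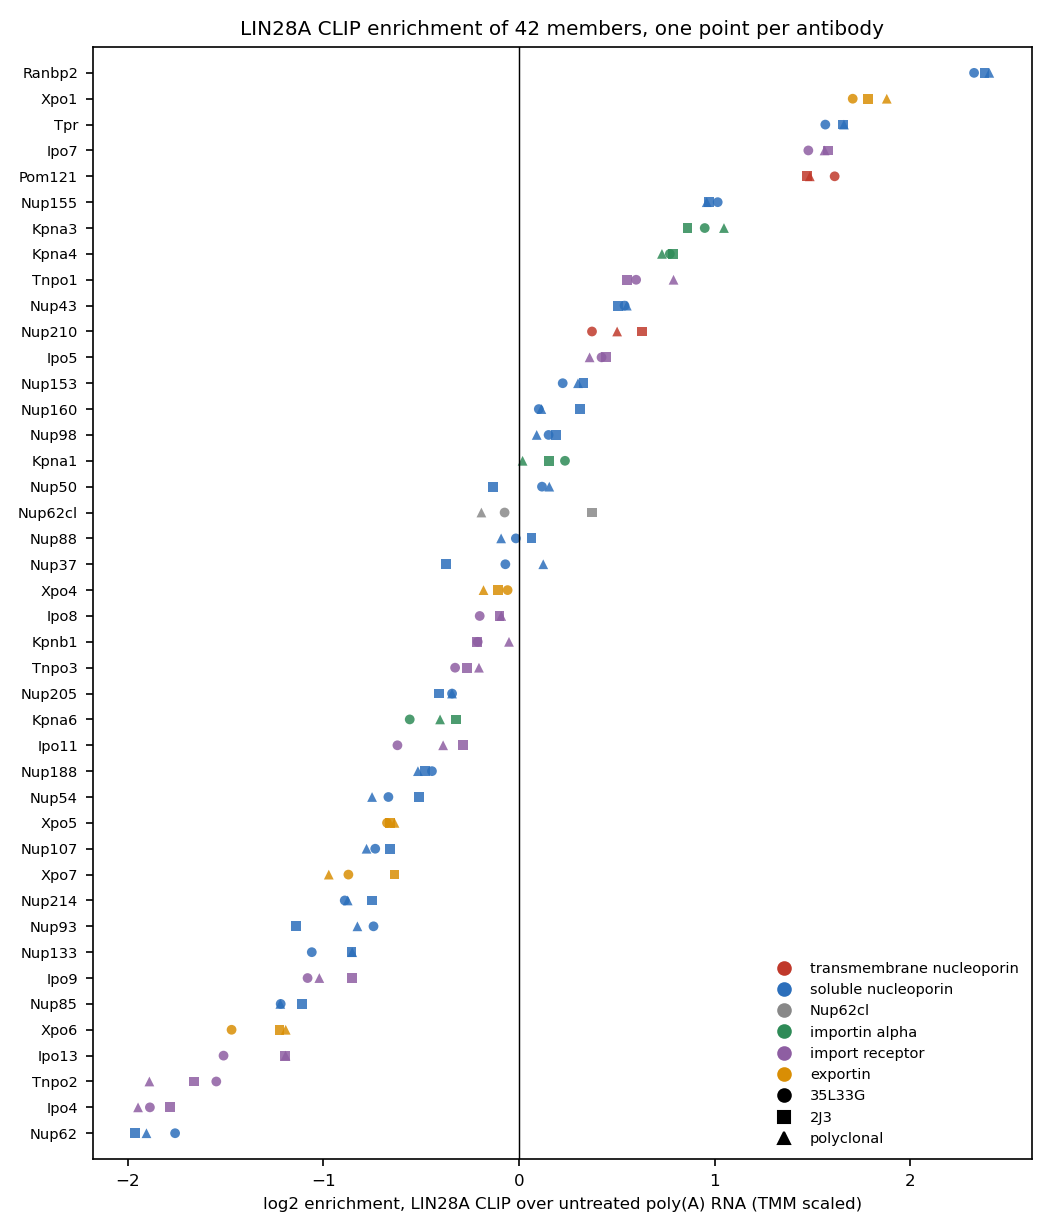
Log2 CLIP enrichment over untreated poly(A) RNA of the 42 genes, with a point for each of the 3 antibodies. Genes are ordered by mean enrichment and coloured by role. Means over antibodies run from -1.87 (Nup62) to 2.37 (Ranbp2). With this TMM scaling both transmembrane nucleoporins lie above 0 for each antibody.

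Genes outside the naming rule gave a measure of the surroundings. Of 20 pore and transport partners in the CLIP table, 5 were enriched and 10 depleted, with a median of -0.67; Ran stood at 1.63 ± 0.07 and the Ran GTPase activator Rangap1 at -1.45 ± 0.12. Tmem48, the older symbol of the transmembrane nucleoporin NDC1, was at 0.32 ± 0.03 and was not called (edgeR adjusted p = 0.0515). Of 14 membrane proteins of the nuclear envelope 9 were enriched and 1 depleted, with a median of 1.26. Among these the lamin B receptor Lbr was highest at 2.47 ± 0.04 and the tail-anchored protein emerin (Emd) lowest at -2.69 ± 0.68.

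The position of the CLIP reads within the mRNA was read from the share of 3′ UTR counts among coding plus 3′ UTR counts. The median share over the 42 genes was 11.3% ± 0.17 (SD over 3 antibodies, n = 3), against 30.3% ± 0.30 over the 7294 coding transcripts with enough counts. A smaller share of their transcript models was also noncoding, a median of 27.2% of model length against 43.96%. That length share counts both UTRs, so it is a loose guide to the 3′ UTR. The CLIP share exceeded it for 9 of the 42 genes (21.4%), beside 27.7% of all coding transcripts.

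Pom121 was among the genes with the largest 3′ UTR share. With 35L33G, 2J3 and the polyclonal antibody its share was 58.0%, 63.3% and 65.7%, a mean of 62.3% ± 3.99 (SD, n = 3), where 35.4% of its model is noncoding. All antibodies lay above the length share, and the gap of 26.9 points was the largest of the 42 genes. Nup210 showed no such gap: its shares were 13.1%, 17.6% and 18.4%, a mean of 16.4% ± 2.87 (SD, n = 3) beside a length share of 19.5%.

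The highest share of all belonged to Tnpo1, at 69.2% ± 0.90 (SD, n = 3) where 49.97% of the model is noncoding. Nup50, a mobile basket protein that helps to release imported cargo, was at 67.1% ± 2.45 beside 70.5%, and Kpna3 at 53.4% ± 2.54 beside 62.4%. Nup62, depleted in CLIP, carried a 3′ UTR share of 50.9% ± 2.74 beside 33.7%. Of the 11 import receptors 4 lay above their length share, among them Tnpo1, Tnpo2 and Tnpo3, the whole transportin group. All 4 importin alpha genes lay below it, with medians of 46.8% in CLIP and 61.1% in length. The exportins had a median of 3.86% in CLIP and 24.2% in length, and Xpo1 had 4.07% ± 0.39 of its counts in the 3′ UTR beside 37.5%.

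Ranbp2 and Tpr, the long mRNAs with the strongest enrichment among nucleoporins, were read almost wholly in the coding region, with 0.89% ± 0.17 and 1.86% ± 0.58 of counts in the 3′ UTR. Their models hold little else, 3.31% and 3.36% noncoding. Xpo5 was at 0.42% ± 0.42. The models of Ipo7 and Xpo4 hold no noncoding sequence, so their share is 0 by construction. Nup93, 15.98% noncoding, had 0 of 990, 752 and 968 counts there, which allows a share of up to 0.303%, 0.399% and 0.31% (3 counts of each total).

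**Figure D3:**
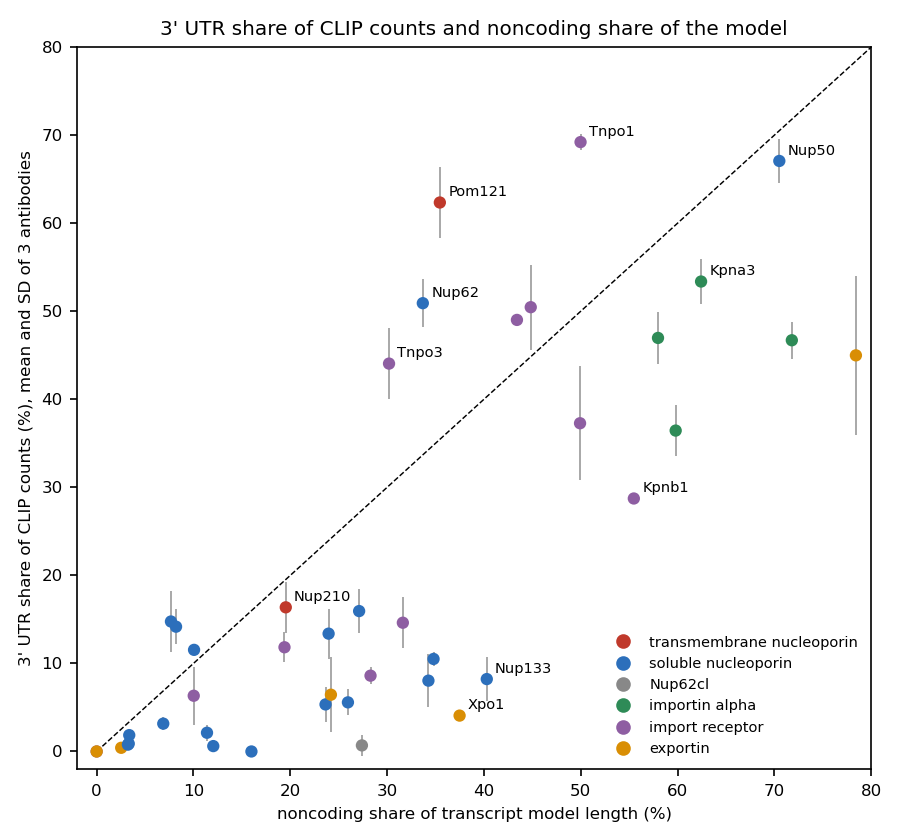
Share of 3′ UTR counts among coding plus 3′ UTR CLIP counts (y axis, percent, mean and SD of 3 antibodies) against the noncoding share of transcript model length (x axis, percent) for the 42 genes, with a dashed line of equal shares. Pom121 and Tnpo1 lie far above the line, at 62.3% and 69.2% in CLIP, and most genes lie below it.

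At the mRNA level the genes moved little after Lin28a siRNA. None of the 42 genes with at least 200 counts over both libraries differed by 1.5-fold or more between siLin28a and siLuc, where 7.62% of 8859 transcripts were that much higher and 4.5% that much lower. The median log2 change was -0.13, against -0.00 over all transcripts. There were 12 genes above 0 and 30 below, where 50.2% of all transcripts were below. Counting intervals lay wholly below 0 for 23 of the 42 genes and above 0 for 7; over all transcripts the interval lay below 0 for 30.6% and above 0 for as many.

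The largest mRNA increases included both transmembrane nucleoporins. Pom121 had 488 counts in siLuc and 823 in siLin28a, 65.3 and 85.7 CPM, a log2 change of 0.39 (0.23 to 0.55). Nup214, a phenylalanine-glycine repeat protein of the cytoplasmic face, went from 166 to 212 CPM, a change of 0.36 (0.25 to 0.46). Nup210 went from 128 to 147 CPM, a change of 0.21 (0.09 to 0.33). These 3 led the set, followed by Xpo6 at 0.13. The lowest were 3 of the 4 importin alpha genes: Kpna4 went from 162 to 111 CPM, a change of -0.54 (-0.66 to -0.42), and Kpna3 and Kpna1 were also at -0.54, whereas Kpna6 was at -0.06 (-0.17 to 0.05). Xpo1 went from 1046 to 742 CPM, a change of -0.50 (-0.54 to -0.45). All 4 importin alpha and all 6 Y complex genes were below 0.

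The siLuc library itself differed from the untreated one for some of the same genes. Pom121 was at 107 CPM in untreated cells and 65.3 in siLuc, a log2 difference of -0.71 (-0.87 to -0.56), and Ipo13 stood at -0.67 (-0.84 to -0.50). They were the 2 genes that differed by 1.5-fold, both lower in siLuc, with a background of 4.46% lower and 3.31% higher. Ipo4 (-0.54) and Tnpo1 (-0.41) were the next lowest; Tpr (0.53), Kpna4 (0.47), Xpo1 (0.36) and Nup88 (0.35) were the highest. Both comparisons use the siLuc library, so a low or high siLuc value moves them in opposite directions. Set against the untreated library, siLin28a mRNA was at -0.32 for Pom121, -0.03 for Nup210, -0.02 for Nup214, -0.07 for Kpna4 and -0.14 for Xpo1. No gene reached 1.5-fold there (background 7.43% higher, 5.07% lower). Of the 42 genes 36 were below 0, beside 52.2% of 9056 transcripts. The median was -0.20, beside -0.02 over all transcripts. The mRNA increases of Pom121, Nup214 and Nup210 were therefore seen against siLuc alone.

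Ribosome footprints differed far more. Of 44 genes, 2 exceeded siLuc by 1.5-fold or more in siLin28a and 26 lay below it by as much, where 14.4% of 6323 transcripts were higher and 26.9% lower. The 2 were the transmembrane nucleoporins. The median log2 change was -0.65 here and -0.21 over all transcripts, and 41 of the 44 were below 0, where 63.6% of all transcripts were. Counting intervals lay wholly below 0 for 39 genes (88.6%) and above 0 for 3 (6.82%), beside 49.5% and 26.7% of all transcripts. Centred on the median transcript, 2 were higher and 18 lower, with 20.8% and 16.2% of all transcripts.

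Pom121 had 583 footprints in siLuc and 846 in siLin28a, 77.0 and 141 CPM, a log2 change of 0.88 (0.72 to 1.03). Nup210 had 2625 and 3324 footprints, 347 and 556 CPM, a change of 0.68 (0.61 to 0.75). Both raw counts were higher in siLin28a although that library was smaller. Each of the 20 soluble nucleoporins was below 0, from -1.57 to -0.07 with a median of -0.65. Nup210 exceeded the soluble median by 1.33 and Pom121 by 1.53 log2 units. Xpo6 was the other gene above 0, at 0.23 (0.03 to 0.42).

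Among the soluble nucleoporins Nup133, a Y complex protein, was lowest: 908 footprints in siLuc and 242 in siLin28a, 120 and 40.5 CPM, a log2 change of -1.57 (-1.77 to -1.36). Nup98, a repeat protein that also occurs away from pores, went from 228 to 91.1 CPM, a change of -1.32 (-1.46 to -1.18). Nup214 was the highest at -0.07 (-0.15 to 0.02). All 6 Y complex genes were at least 1.5-fold lower, with a median of -0.88, as were 3 of 5 inner ring genes and 2 of 3 channel genes. On the cytoplasmic side and in the basket 1 of 3 genes each was that much lower.

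All 5 importin alpha genes were at least 1.5-fold lower in footprints, with a median of -0.96. Kpna2 led them, from 606 to 247 CPM, a change of -1.29 (-1.38 to -1.21); its footprint tally does not use the uncertain mRNA tally. Of the 11 import receptors 6 were lower, Ipo7 most at -1.23 (-1.33 to -1.14). Kpnb1 went from 2169 to 1112 CPM, a change of -0.96 (-1.01 to -0.92), and Tnpo1 from 400.1 to 266 CPM, a change of -0.59 (-0.68 to -0.50). Of the 5 exportins 2 were lower, Xpo1 among them at -0.87 (-0.94 to -0.80). Ipo13 was close to 0, at -0.07 (-0.41 to 0.27).

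**Figure D4:**
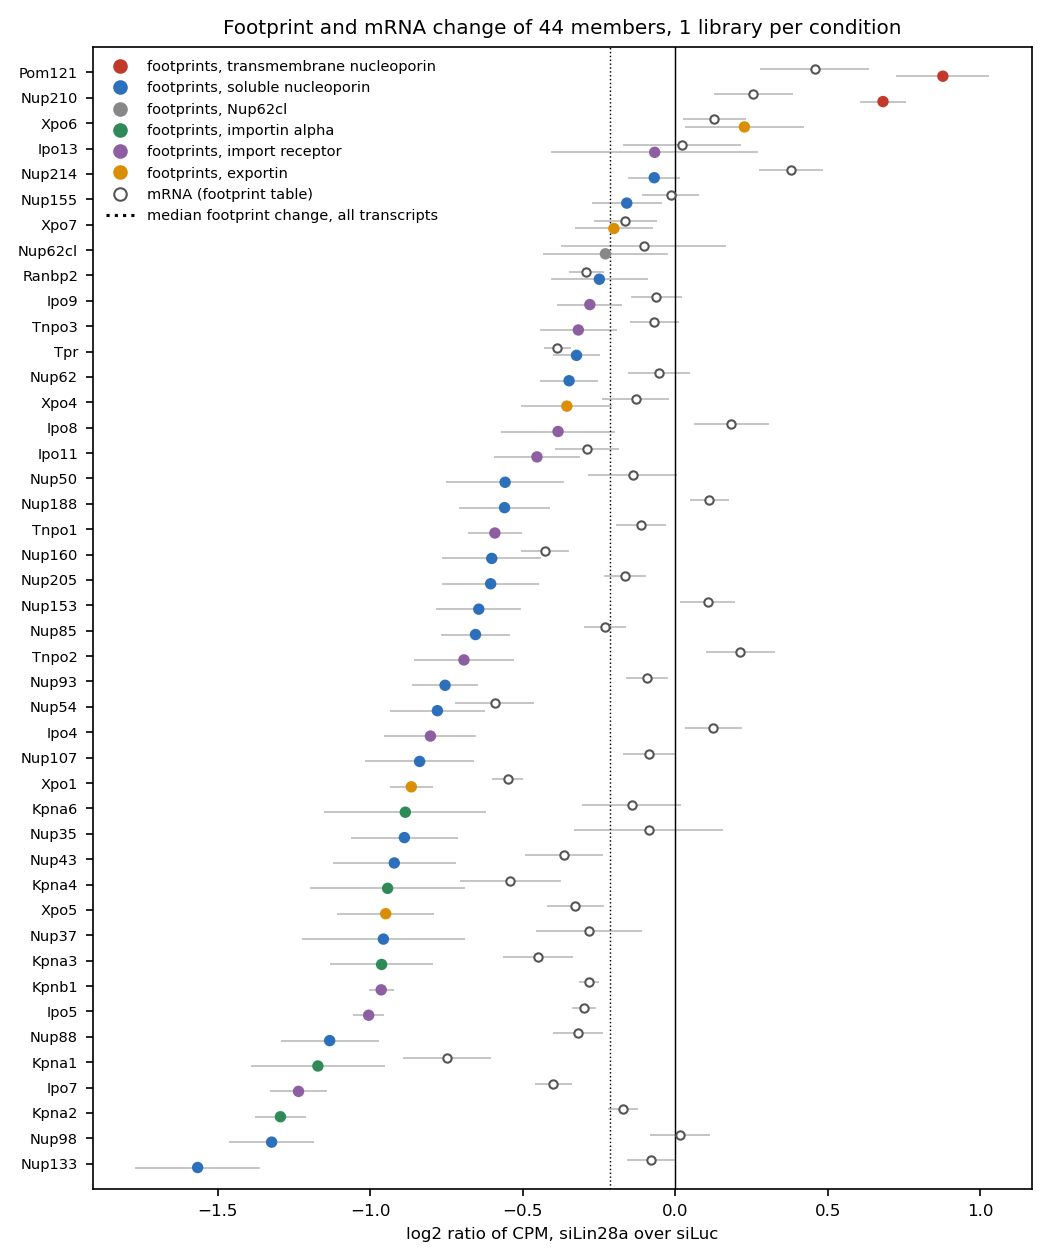
Log2 change between siLin28a and siLuc, scaled to library totals, of footprints and of mRNA for each of the 44 genes, with 95% counting intervals. Pom121 (0.88) and Nup210 (0.68) stand apart from the soluble nucleoporins in footprints, of which the highest is at -0.07.

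Ribosome density, footprints per mRNA, separates these shifts from those of the mRNA. It was taken within the footprint table and centred on the median transcript, which by library totals lay at -0.22. Density in siLin28a exceeded siLuc by 1.5-fold or more for 2 of 44 genes and lay below it by as much for 8, where 18.6% of 7799 transcripts were higher and 17% lower. The median log2 change was -0.23, with 12 genes above 0 and 32 below. With library totals and no centring no gene was 1.5-fold higher and 17 were lower, with 11.1% and 27.3% of all transcripts.

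Nup210 and Pom121 ranked highest of the 44. Nup210 changed by 0.64 (0.49 to 0.79) and Pom121 by 0.64 (0.40 to 0.87) on the log2 scale, 1.56-fold and 1.55-fold, just past the fold used. They exceeded the soluble median by 0.93 and 0.92, and the highest of the 20 soluble genes was Tpr at 0.28 (0.19 to 0.37). By library totals the changes were 0.43 and 0.42. Tmem48, the NDC1 gene that the naming rule leaves out, was at 0.75 (0.58 to 0.92), above each of those 20. Seh1l, a soluble Y complex nucleoporin that the rule also leaves out, was at 0.30 (0.11 to 0.49). The 21 pore and transport partners outside the rule had a median of -0.18. Of them 1 was at least 1.5-fold higher and 4 lower, where 18.6% and 17% of all transcripts were. Xpo6 was at 0.31 (0.09 to 0.54).

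Of the genes with lower density, Nup133 was lowest at -1.27 (-1.49 to -1.05) and Nup98 next at -1.12 (-1.29 to -0.95). Kpna2 was at -0.91 (-1.01 to -0.81), a value that rests on the uncertain tally and was -0.66 with the mRNA counts of the poly(A) table. Ipo4 (-0.71), Tnpo2 (-0.69), Ipo7 (-0.62), Nup88 (-0.60) and Nup35 (-0.59) were the others past 1.5-fold. By role, 1 of 6 Y complex, 1 of 5 inner ring, 1 of 3 channel and 1 of 3 cytoplasmic genes were lower, with 1 of 5 importin alpha and 3 of 11 import receptor genes and no exportin. Kpnb1 was at -0.47 (-0.52 to -0.41), Tnpo1 at -0.26 (-0.38 to -0.14) and Xpo1 at -0.10 (-0.19 to -0.01). For Xpo1 most of the footprint difference was thus matched by the mRNA, for Nup133 almost none of it, with an mRNA change of -0.08 in the same table.

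Within the siLuc control the genes also differed in density. In siLuc cells 7 of the 44 were at least 1.5-fold above the median transcript and 10 at least 1.5-fold below, where 30% and 29.8% of all transcripts were; the median was -0.20. Nup35 was highest at 2.08, on an uncertain tally, and Nup210 next at 2.01 (1.89 to 2.12), 4.02-fold above the median transcript. Nup62cl (1.51) and Nup214 (1.38) followed, and Pom121 was at 0.83 (0.64 to 1.01). The lowest were Ranbp2 at -2.32 (-2.43 to -2.21), Nup205 at -1.52, Nup188 at -1.40 and Nup160 at -1.34. After Lin28a siRNA Nup210 stood at 2.75 and Pom121 at 1.56, against -1.96 for Ranbp2. These values are centred on the median transcript of siLin28a, so their gap to the siLuc values is not the density change given above.

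CLIP enrichment and density change were related loosely among these genes. Over the 42 genes in both tables Pearson's r was 0.27 and Spearman's rho 0.18, and without Nup210 and Pom121 r was 0.18 and rho 0.09 (n = 40). Over all 7111 transcripts in both tables r was 0.49 and rho 0.48. The points share libraries, and the siLuc and siLin28a mRNA enter each density value, so these are descriptions across genes, which are not independent replicates. The 13 enriched genes had a median density change of -0.19 and the 20 depleted ones -0.23, where all enriched transcripts had 0.36 and all depleted ones -0.32.

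The most enriched genes show how the sides combine. Ranbp2, highest in CLIP, changed in density by 0.26 (0.09 to 0.43), Xpo1 by -0.10, Tpr by 0.28 and Ipo7 by -0.62. Nup62, the most depleted, changed by -0.08 (-0.22 to 0.06) and Ipo4, next to it, by -0.71. High CLIP enrichment thus went with density changes on either side of 0 in this set. Pom121 and Nup210 were enriched and higher in density, and lay in the range of the nuclear envelope membrane proteins, of which 7 of 14 were past 1.5-fold upward and 0 downward, with a median of 0.56. Lbr, the most enriched of those, changed by 0.64 (0.54 to 0.74), and emerin, the most depleted, by -0.30 (-0.64 to 0.04).

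**Figure D5:**
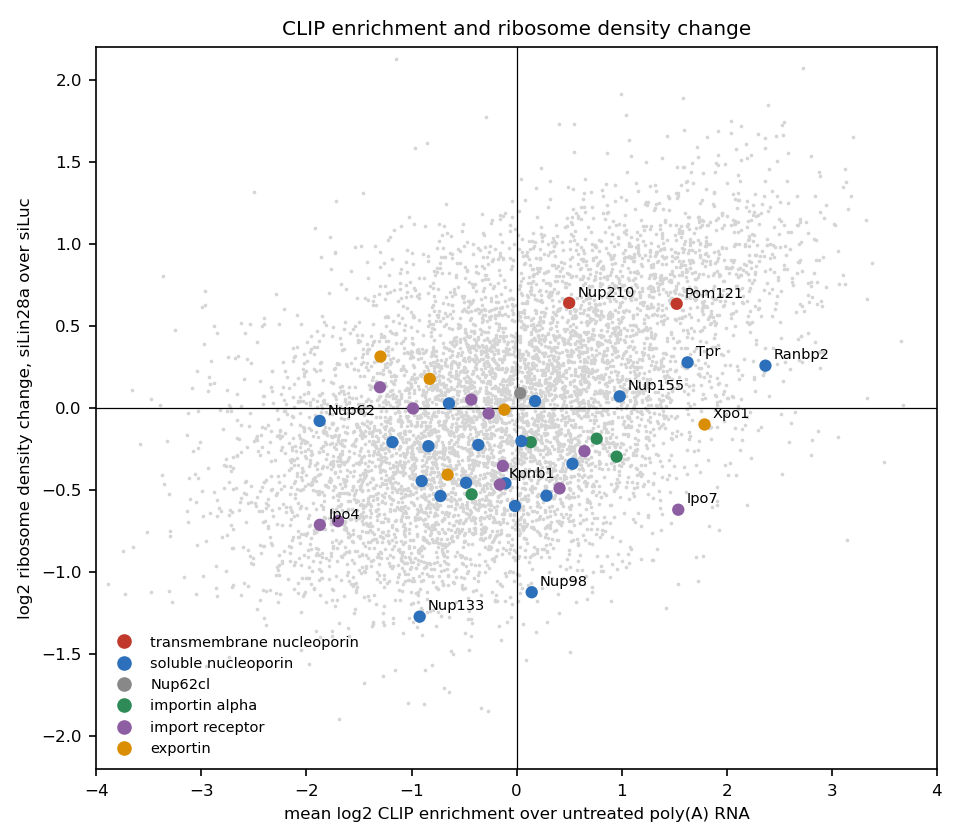
CLIP enrichment (x axis, log2 over untreated poly(A) RNA) against the change of ribosome density between siLin28a and siLuc (y axis, log2, centred), with 42 genes in colour over all 7111 transcripts in grey, of which 10 fall outside the axes. Nup210 and Pom121 lie at the top of the coloured points, at 0.64, and Nup133 at the bottom, at -1.27.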

How the data were processed

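CLIP (3 libraries), poly(A) RNA (3) and footprints (2) were analysed from 3 deposited tables. The values are whole read counts per RefSeq transcript and, for poly(A) RNA, RPKM computed by the authors, per the file headers. GSNAP, bedtools and the mouse build mm9 appear in the submitters' processing notes, which give them no role; how reads were assigned to transcripts, and tool versions, are not given in the sources used. Reads were not deduplicated here, so intervals cover counting error only. The CLIP table also holds poly(A) exon counts of an unnamed condition, which served as an alternative input. In the footprint table no poly(A) count is below 80. Another 20 columns with values of samples were left out.

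For CLIP enrichment, edgeR 4.0.16 under R 4.3.3 was run on the deposited counts: quasi-likelihood, TMM, filterByExpr, Benjamini-Hochberg adjustment over the whole table, 3 CLIP libraries against 1 input. DESeq2 1.42.0 was an alternative. Log2 values used a pseudocount of 0.5 counts, with at least 200 counts over both libraries for mRNA and footprints, 50 in each assay for density and 50 for 3′ UTR shares. CPM are counts scaled to library totals. Intervals are 95%, by a normal approximation on the log scale. With 1 library a group, called means 1.5-fold. Scripts were tested on simulated data.

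Symbols and coordinates are those of the files; 47 of 47 members were found in the RefSeq gene table (GRCm38.p6), used for names only. Named are the transmembrane nucleoporins, the 6 highest and 6 lowest others in CLIP, the 4 highest and 4 lowest in each other measure, and Kpnb1, Kpna2, Xpo1 and Tnpo1; other names were added after their values were seen. The members, the gene lists and the markers were chosen with earlier results of these data known.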

Additional observations from a re-analysis of the deposited data

How the results depend on the processing

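No paired analysis was possible because the labels give no replicate numbers (those used here only name samples) and all but the CLIP group hold 1 library. Leaving out each antibody in turn gave 13 to 13 enriched and 19 to 20 depleted genes, a gap to the soluble median of 0.52 to 0.80 for Nup210 and 1.63 to 1.76 for Pom121, and a 3′ UTR share of 11.2 to 11.4%. With library totals CLIP enrichment changed sign for 6 genes: Nup153 (-0.082), Nup160 (-0.19), Kpna1 (-0.23), Nup98 (-0.22), Nup62cl (-0.31) and Nup50 (-0.32). Leaving out 1 antibody changed the sign of 4 uncalled genes near 0, with ranges of -0.13 to 0.17 for Nup62cl, -0.21 to 0.030 for Nup37, -0.0027 to 0.14 for Nup50 and -0.053 to 0.024 for Nup88. The gap for Pom121 was 1.53 with the CLIP table's poly(A) counts as input and 0.52 with coding-region CLIP counts over whole-exon input. The 3′ UTR share was 11.7% at a minimum of 200 counts, 13.9% from summed counts and 11.8% over genes whose model holds noncoding sequence. The footprint median was -0.43 when centred and -0.42 with TMM, which left 17 genes 1.5-fold lower. For density change, library totals gave a median of -0.44, 0 genes higher and 17 lower. For density in siLuc, the median was -0.52 with library totals, -0.44 at a minimum of 200 counts and -0.055 with the poly(A) table's mRNA counts; 18 genes were lower with library totals and 12 higher with the poly(A) table's counts. The cause was not tested. Among single genes in CLIP, 272 of 294 recomputed values kept direction and call, 10 changed sign, 9 lost the call and 5 gained it. Of these, 2 both changed sign and call. Single-gene densities in siLuc were less stable: 123 recomputed values left the main counting interval of the gene and 9 stayed in it. For footprint changes 79 left it and 138 stayed, and for density changes 33 left it and 184 stayed. All recomputed mRNA changes stayed in it. The restriction to models with noncoding sequence and the runs without disagreeing tallies were chosen after seeing the data. Replicates of the siRNA libraries would be needed to put an error on any of those changes.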
